A study of Arabidopsis thaliana with 6 samples.

Results

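The plasma membrane intrinsic proteins (PIPs) are the aquaporins of the plant cell surface. The 10 PIP genes described here were taken by locus, and RefSeq holds a numbered name and a letter name for each. The PIP1 group was represented by *PIP1A* (PIP1;1, AT3G61430), *PIP1B* (PIP1;2, AT2G45960), *PIP1C* (PIP1;3, AT1G01620), *PIP1D* (PIP1;5, AT4G23400) and *PIP1E* (PIP1;4, AT4G00430). The PIP2 group was represented by *PIP2A* (PIP2;1, AT3G53420), *PIP2B* (PIP2;2, AT2G37170), *PIP2E* (PIP2;6, AT2G39010), *PIP3A* (PIP2;7, AT4G35100) and *PIP3B* (PIP2;8, AT2G16850), the last pair of which belongs to the PIP2 group despite its letter name. They are 10 of the 33602 genes in the count table. A gene with a mean under 10 counts over the 6 libraries was treated as not measured.

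The libraries were made from polyA RNA of leaves 3 and 4 at 16 days after sowing, with 3 libraries of the wild type (WT), the L*er* ecotype, and 3 of *rse1-1* in the L*er* background. Plants of both genotypes grew in soil at 22°C with 16 h of light and 8 h of dark, and received no treatment. *rse1-1* is a single mutant line from a chemical screen that carries a premature stop codon in the glycosyltransferase-like gene *RSE1*, and its leaves were sampled before they turned visibly yellow. The comparison asks which transcripts already differed at that time. The study describes the libraries of each genotype as biological replicates. Neither it nor the labels say how many plants each library held, and the p-values measure the spread between these libraries.

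Aquaporins are tetramers of channel subunits. Each subunit is built around a pair of loops with the conserved motif asparagine-proline-alanine, called the NPA boxes, which meet in the middle of the membrane and line a pore for water. PIP2 subunits form efficient water channels on their own when expressed in frog oocytes, whereas many PIP1 subunits reach the plasma membrane and conduct water well only when assembled with PIP2 subunits. Some PIPs also pass hydrogen peroxide or carbon dioxide. In leaves they carry water from the veins through the living cells to the sites of evaporation, and their amount and phosphorylation set how easily water crosses these cells.

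The coding sequence around the second NPA box shows how alike the members are, which matters because only uniquely mapped reads were counted. The stretches below are RefSeq sequence of TAIR10.1, from the coding strand, 57 bases each within 1 exon, with the codons of the NPA box in capitals.
PIP1C, chr1:226201-226257, minus strand: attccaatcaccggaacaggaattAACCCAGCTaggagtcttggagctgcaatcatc
PIP1E, chr4:186363-186419, minus strand: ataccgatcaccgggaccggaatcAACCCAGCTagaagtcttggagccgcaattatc
PIP1A, chr3:22734837-22734893, plus strand: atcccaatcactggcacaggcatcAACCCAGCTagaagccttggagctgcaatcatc
PIP1B, chr2:18911433-18911489, plus strand: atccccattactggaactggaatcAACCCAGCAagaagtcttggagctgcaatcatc
PIP1D, chr4:12221840-12221896, plus strand: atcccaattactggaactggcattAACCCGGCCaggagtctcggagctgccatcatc
PIP2A, chr3:19804146-19804202, minus strand: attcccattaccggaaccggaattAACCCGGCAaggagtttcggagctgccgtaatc
PIP2B, chr2:15613872-15613928, minus strand: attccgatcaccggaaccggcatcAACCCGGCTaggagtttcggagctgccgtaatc
PIP2E, chr2:16293453-16293509, plus strand: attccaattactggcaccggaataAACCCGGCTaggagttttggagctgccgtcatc
PIP3A, chr4:16709659-16709715, plus strand: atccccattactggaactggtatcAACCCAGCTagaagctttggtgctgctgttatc
PIP3B, chr2:7302879-7302935, plus strand: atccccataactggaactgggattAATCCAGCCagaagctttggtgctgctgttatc
Even here no 2 members were identical: the other PIP1 members differed from *PIP1C* at 7 to 9 of the 57 bases and the PIP2 members at 9 to 15. Over whole coding sequences, identity was 79.8% to 87.6% among the PIP1 members, 71.8% to 86.1% among the PIP2 members and 69.1% to 75.5% between the groups. Of the windows of 75 bases, the length of a read, within exons of TAIR10.1, none in 9 of the 10 members had a second exact copy in the genome. The exception was *PIP2B*, where 94 of 1049 windows (8.96%) had one. The same number of windows had one in its neighbour *PIP2C* (PIP2;3, AT2G37180), whose coding sequence is 94.8% identical. Reads of these windows could therefore be lost from *PIP2B* and *PIP2C* as not uniquely mapped. Even so, exact copies left most of each member's length open to unique reads.

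The libraries held 9960144 to 15244500 counts on genes. Levels are given as CPM, counts relative to the TMM-scaled library total, or as CPM per kb of merged exon length where genes are compared with each other. The mutated gene *RSE1* was read 563, 552 and 667 times in WT but 290, 219 and 264 times in *rse1-1*, lower in every mutant library. Low counts varied with position: among ribosomal protein genes, which every cell uses, 10 of 78 (12.8%) within 5 Mb of a chromosome start had a mean under 10 counts, against 124 of 265 (46.8%) further along. The reads were aligned to a L*er*-0 genome rebuilt from Col-0, and gene counts alone do not tell a named gene's reads from those of a gene nearby. This holds for *RSE1* too, which starts 7.31 Mb along chromosome 5. Of leaf mesophyll markers, *RBCS1A* had a mean of 719.5 counts per library while *CAB1*, *CAB2* and *CAB3* were at or near 0.

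Among the PIP members, 5 had counts and 5 were listed at 0 in all 6 libraries. The 5 measured genes were *PIP1C*, *PIP1E*, *PIP2A*, *PIP2E* and *PIP3B*, with means of 242.5 to 4057 counts per library. The 5 genes at 0 were *PIP1A*, *PIP1B*, *PIP1D*, *PIP2B* and *PIP3A*, and they are not measured here. Both members within 5 Mb of a chromosome start, *PIP1C* and *PIP1E*, had counts, while 5 of the 8 members further along were at 0.

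Of the 5 measured members, *PIP1C*, *PIP1E*, *PIP2E* and *PIP3B* fell in *rse1-1* and *PIP2A* rose, all by edgeR's quasi-likelihood test at an adjusted p under 0.05. Their log2 fold changes (log2FC, *rse1-1* over WT, with its standard error SE) ran from -2.66 to 0.76 with a median of -1.33, against a median of -0.0086 over the 16294 genes tested. Most genes differed between the genotypes: 77.0% of the tested genes were called, 38.3% as lower and 38.8% as higher, so a call by itself does not set the members apart. The study, with DESeq2 at an adjusted p under 0.05, reported far fewer differing genes, most of them higher in *rse1-1*. DESeq2 called 12041 genes here, and the cause of this gap was not tested. A log2FC of -1 or below with a call, which 14.4% of the tested genes had, was found for all 4 members that fell. In none of the 5 members did the genotypes overlap, which held for 79.5% of the tested genes and for 82.1% of those within 5 Mb of a chromosome start. In whole leaves, fewer cells of a type and less RNA per cell cannot be told apart.

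**Figure D1:**
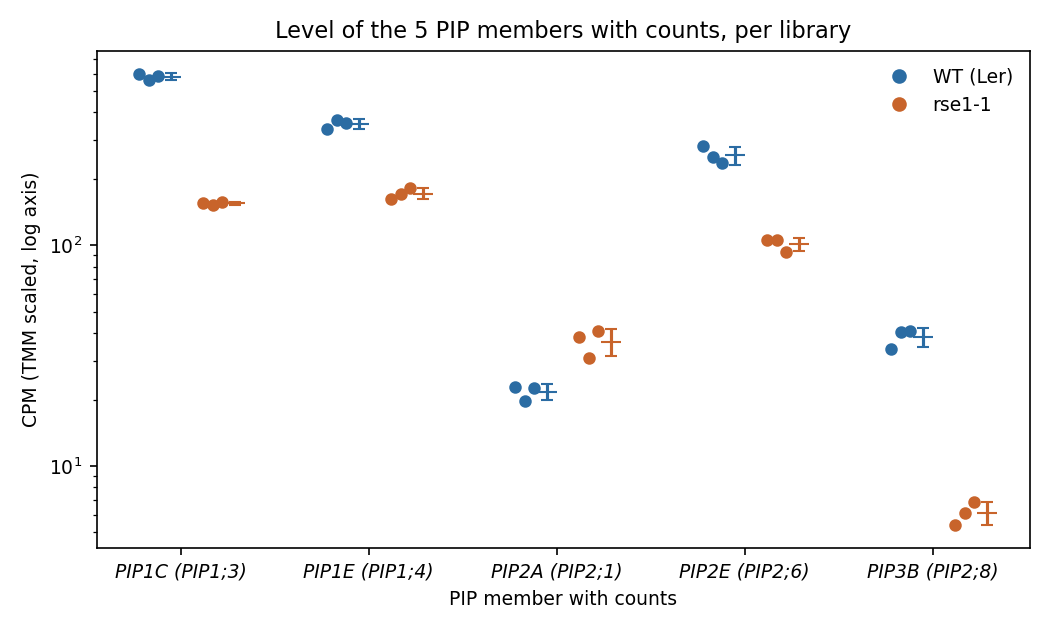
CPM after TMM scaling (log axis) of the 5 PIP members with counts in each library. Points are the 3 WT (blue) and 3 *rse1-1* (orange) libraries, and the bar beside them is the mean with its SD. *PIP1C*, *PIP1E*, *PIP2E* and *PIP3B* lie lower in every *rse1-1* library than in any WT library, and *PIP2A* lies higher.

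*PIP1C* had the highest level per length of the measured members. It lies on the minus strand of chromosome 1 of TAIR10.1, from 225665 to 227543, close to the chromosome start. Its counts were 5901, 5683 and 6823 in WT, against 2382, 1577 and 1978 in *rse1-1*. After scaling, the *rse1-1* libraries lay at 155, 153 and 158 CPM, far below the WT libraries at 598, 559 and 587 CPM. The level fell from 582 ± 20.1 CPM (SD, n = 3) to 155 ± 2.48 CPM (SD, n = 3), which is 26.7% of the WT level. The log2FC was -1.91 (SE 0.0698, adjusted p = 4.41e-12), and 2.55% of the tested genes had a lower one. Dropping any single library gave -1.94 to -1.88. In WT, *PIP1C* ranked above 98.8% of the tested genes by CPM. Of the 3 genes on either side, the one with most counts, AT1G01630, had a log2FC of -0.10 and did not pass (SE 0.0644, adjusted p = 0.178).

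*PIP1E*, whose product is known to let hydrogen peroxide into the cell during immune responses, fell less. It lies on the minus strand of chromosome 4 from 185285 to 187680, also close to the chromosome start. Raw counts of 3321, 3760 and 4162 in WT stood against 2493, 1765 and 2282 in *rse1-1*, whose libraries were on average deeper. After scaling, WT lay at 337, 370 and 358 CPM and *rse1-1* at 162, 171 and 182 CPM, without overlap. The mean fell from 355 ± 16.9 CPM to 171.5 ± 9.86 CPM (SD, n = 3), to 48.3% of WT, with a log2FC of -1.05 (SE 0.0727, adjusted p = 5.08e-09). *CCT*, the nearby gene with most counts, rose instead, with a log2FC of 0.49 (SE 0.0850, adjusted p = 9.06e-05).

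The ratio of these 2 genes within each library does not depend on scaling. By CPM per kb, *PIP1C* was 2.29, 1.95 and 2.12 times *PIP1E* in WT, whereas no *rse1-1* library had a ratio above 1.23. The means were 2.12 ± 0.171 and 1.17 ± 0.0587 (SD, n = 3), and the exact permutation test, two-sided, gave p = 0.10, the smallest that 3 against 3 libraries can give. This was 1 of 3 ratios compared, chosen after their values were seen, and the adjusted p was 0.10 for each. Near their chromosome starts, this pair stands among 4137 tested genes within 5 Mb of a start, of which 79.7% were called, 40.0% as lower and 39.7% as higher, and 14.9% as lower by a log2FC of -1 or below, with a median log2FC of -0.027.

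*PIP2E* had the highest level among the measured PIP2 members. It lies on the plus strand of chromosome 2 from 16291280 to 16294101, more than 5 Mb from the chromosome start. Whether the reads listed for it came from *PIP2E* was not tested. WT counts of 2775, 2543 and 2737 compared with 1621, 1087 and 1176 in *rse1-1*. The scaled WT libraries, at 281, 250 and 236 CPM, all lay above the *rse1-1* libraries, at 105.4, 105.2 and 93.7 CPM. The mean fell from 256 ± 23.3 CPM to 101 ± 6.71 CPM (SD, n = 3), to 39.7% of WT, with a log2FC of -1.33 (SE 0.0819, adjusted p = 1.31e-09). The next gene downstream, AT2G39020, which RefSeq describes as an acyltransferase, starts 3.86 kb after the start of *PIP2E* and moved alike, from 3831 to 2166 mean counts, with a log2FC of -1.10 (SE 0.0766, adjusted p = 5.29e-09).

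*PIP3B* had the largest change of the measured members. It lies on the plus strand of chromosome 2 from 7301334 to 7303509. It was read 336, 413 and 474 times in WT but only 83, 63 and 86 times in *rse1-1*, far below every WT library. In CPM, WT lay at 34.1, 40.6 and 40.8 and *rse1-1* at 5.40, 6.10 and 6.85. The level fell from 38.5 ± 3.85 CPM to 6.11 ± 0.727 CPM (SD, n = 3), to 15.9% of WT. The log2FC was -2.66 (SE 0.121, adjusted p = 4.90e-11), with 0.626% of the tested genes below it. Dropping any single library gave -2.75 to -2.55. Its downstream neighbour AT2G16860, 2.48 kb on, moved the other way, with a log2FC of 0.23 (SE 0.0700, adjusted p = 0.00793). *PIP3B* lies more than 5 Mb from the chromosome start, and whether the reads listed for it came from that gene was not tested.

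*PIP2A* was the only measured member that rose. Its product is a water channel that also passes hydrogen peroxide and that the kinase OST1 phosphorylates in guard cells. It lies on the minus strand of chromosome 3 from 19803473 to 19805730. Its counts of 588, 320 and 511 in *rse1-1* all exceeded those of WT, at 226, 200 and 263. In CPM the gap was narrower, with WT at 22.9, 19.7 and 22.6 and *rse1-1* at 38.2, 31.0 and 40.7. The mean rose from 21.7 ± 1.79 CPM to 36.6 ± 5.06 CPM (SD, n = 3), 1.69-fold, with a log2FC of 0.76 (SE 0.110, adjusted p = 1.61e-05). Dropping any single library gave 0.68 to 0.87. In WT the gene stood near the middle of the tested genes, above 49.2% of them by CPM. None of the 3 genes on either side had a mean of at least 10 counts. Whether the reads listed here came from *PIP2A* was not tested.

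By CPM per kb, the order of the measured members in WT was *PIP1C* (375 ± 13.0), *PIP1E* (178 ± 8.46), *PIP2E* (119 ± 10.9), *PIP3B* (26.0 ± 2.60) and *PIP2A* (13.8 ± 1.14, SD, n = 3 for each). In *rse1-1* it was *PIP1C* (100.1 ± 1.60), *PIP1E* (85.8 ± 4.93), *PIP2E* (47.2 ± 3.12), *PIP2A* (23.3 ± 3.22) and *PIP3B* (4.13 ± 0.492, SD, n = 3 for each). *PIP2A* and *PIP3B* thus changed places. The libraries of neighbouring genes in these orders did not overlap in either genotype, although *PIP1C* and *PIP1E* came close in *rse1-1*. Summed over the PIP1 members, of which 2 had counts, the level went from 936.5 ± 8.52 CPM to 326.5 ± 11.5 CPM (SD, n = 3), to 34.9% of WT. Summed over the PIP2 members, of which 3 had counts, it went from 316 ± 20.1 CPM to 144 ± 4.24 CPM (SD, n = 3), to 45.6% of WT. *PIP1C* and *PIP1E* thus made up most of the counts on PIP members in both genotypes. They are the 2 members within 5 Mb of a chromosome start, and the 5 members at 0 all lie further along. The sums therefore describe only the members with counts, not the make-up of the family in the leaf.

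The members listed at 0 include genes that are known as major PIPs of the rosette, such as *PIP1B*, whose product also eases the passage of carbon dioxide in leaves, and *PIP3A*. Around *PIP1A*, on chromosome 3 from 22733243 to 22735394, the next genes downstream were far from empty. *CYSC1*, a cyanoalanine synthase gene that starts 2.42 kb further, was read 3371, 3184 and 3636 times in WT, and 2466, 1695 and 2106 times in *rse1-1*. *SYP73*, a syntaxin gene that starts 5.11 kb further, was read 5816, 5497 and 6317 times in WT, and 13952, 9013 and 10317 times in *rse1-1*, a log2FC of 0.64 (SE 0.0752, adjusted p = 1.92e-06). *BRH1*, a RING-H2 gene next along, had 1 count over all 6 libraries.

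Around *PIP1B*, on chromosome 2 from 18910081 to 18911982, the genes on either side had modest counts. Its neighbour *SK20*, an SKP1-like gene upstream, had a mean of 210 counts in WT and 156 in *rse1-1*, and *CYP86A8*, a cytochrome P450 gene downstream, was read 119, 170 and 170 times in WT, and 91, 74 and 89 times in *rse1-1*. Around *PIP1D*, on chromosome 4 from 12220641 to 12222468, the 3 genes upstream were at or near 0, while *TET5*, a tetraspanin gene that starts 3.31 kb downstream, was read 1280, 1149 and 1227 times in WT, and 720, 411 and 680 times in *rse1-1*. *TET5* fell, with a log2FC of -1.30 (SE 0.104, adjusted p = 2.56e-08).

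*PIP2B*, on chromosome 2 from 15613368 to 15615022, lies before *PIP2C*, which had 2 counts in 1 *rse1-1* library and 0 elsewhere, and AT2G37190, a ribosomal protein gene listed at 0. AT2G37160, the gene before *PIP2B* by coordinate, had a mean of 264 counts in WT and 369 in *rse1-1*. *PIP3A*, on chromosome 4 from 16708361 to 16710407, is preceded by *CAT2*, the gene of a leaf peroxisomal catalase, which had a mean of 652 counts in WT and 500.3 in *rse1-1*. Over all 10 members, 29 of the 60 genes within 3 places had a mean of at least 10 counts. Around *PIP2A* none of the 6 did, the highest being *LOG4* with a mean of 1 count in WT and 3 in *rse1-1*, although *PIP2A* itself had a mean of 351 counts. Whether reads of the members at 0 were counted on other genes, or on none, was not tested, since gene counts do not hold read positions.

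**Figure D2:**
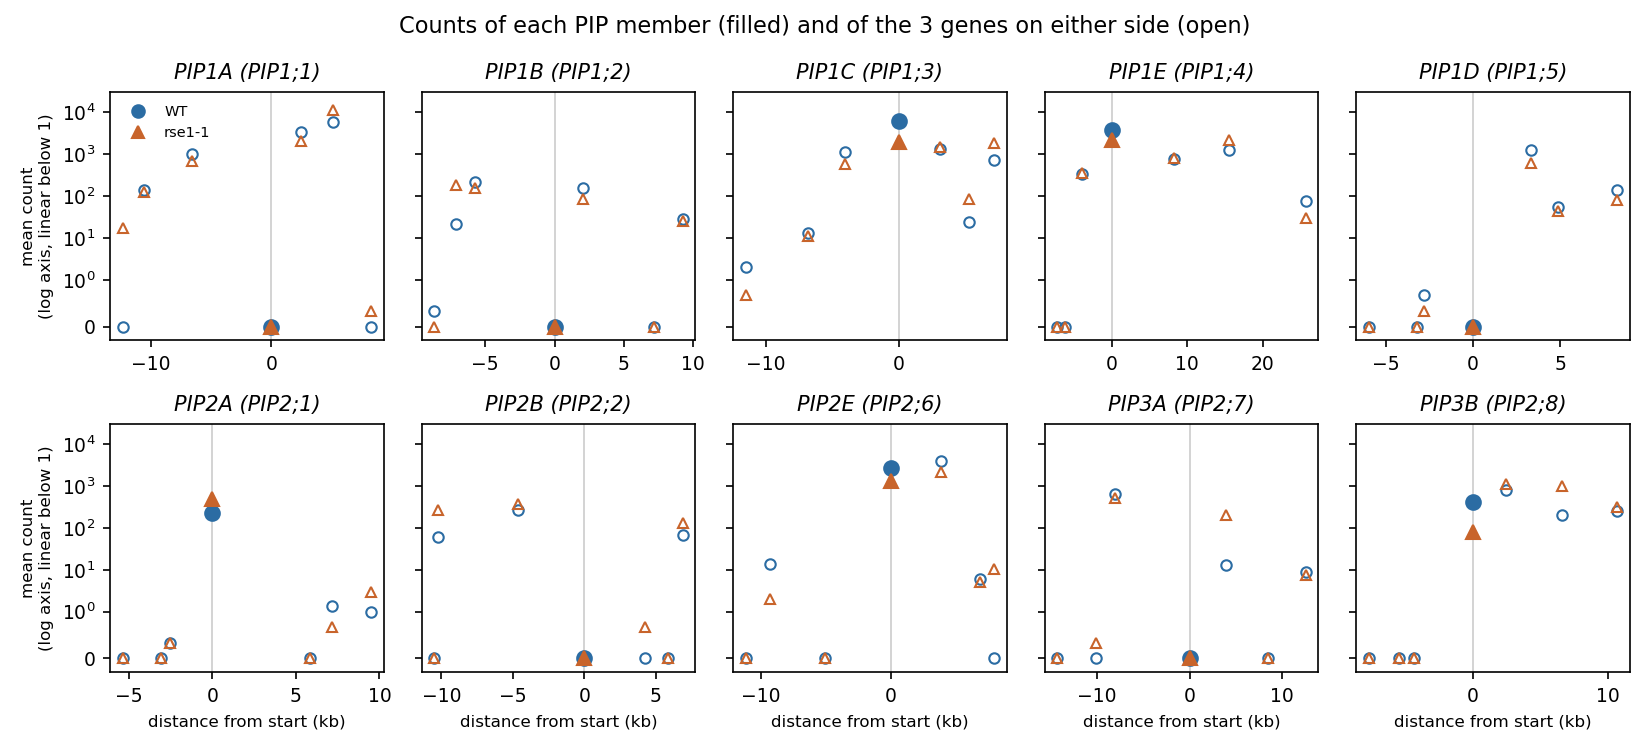
Mean counts of each PIP member (filled symbols) and of the 3 annotated genes on either side (open symbols) against the distance of their starts in kb along the chromosome, for WT (blue circles) and *rse1-1* (orange triangles). The vertical axis is logarithmic and linear below 1. *PIP1A*, *PIP1B*, *PIP1D*, *PIP2B* and *PIP3A* sit at 0 with at least 1 gene nearby that has counts, and *PIP2A* has counts between genes at or near 0.

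The other 25 aquaporin genes of Arabidopsis were listed for comparison: 3 further PIPs, the tonoplast intrinsic proteins (TIPs) of the vacuole membrane, the NOD26-like intrinsic proteins (NIPs), which carry small solutes such as boric acid, and the small basic intrinsic proteins (SIPs) of the endoplasmic reticulum. Of these, 13 had a mean under 10 counts, 6 of them 0 in all libraries. By edgeR's test 11 could be compared, of which 6 fell, 3 rose and 2 did not pass, with a median log2FC of -0.32. With 77.0% of all tested genes called, 38.3% as lower and 38.8% as higher, the number called is near the share over all genes.

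Of the further PIPs, only *PIP2F* (PIP2;4) was measured, with counts of 843, 796 and 874 in WT and 1592, 996 and 1172 in *rse1-1*. *PIP2F*, known mainly from roots, rose in *rse1-1*, from 79.7 ± 5.23 to 97.7 ± 5.22 CPM (SD, n = 3), with a log2FC of 0.30 (SE 0.0738, adjusted p = 0.00197), but its log2FC was 0.11 and did not pass with upper quartile scaling (adjusted p = 0.205). AT5G60650, whose start coordinate is 1.19 kb lower, rose as well, with a log2FC of 0.56 (SE 0.0759, adjusted p = 8.85e-06). *PIP2;5* was listed at 0.

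*TIP2;1*, a tonoplast channel for water and ammonia, had the highest WT level per length of the measured aquaporins, at 541 ± 7.56 CPM per kb. Its counts were 6414, 6435 and 7511 in WT and 1786, 1209 and 1649 in *rse1-1*. It fell in *rse1-1*, without overlap, with a log2FC of -2.41 (SE 0.0761, adjusted p = 9.93e-13). *TIP1;2* fell from 172 ± 18.2 to 87.4 ± 5.96 CPM (SD, n = 3), and *TIP3;1* and *TIP5;1* fell with log2FC values of -0.32 and -0.54. *TIP2;3* rose from 4.53 ± 0.375 to 9.40 ± 0.887 CPM (SD, n = 3). *TIP1;1* was listed at 0 in all 6 libraries. All 5 measured TIPs lie more than 5 Mb from the chromosome start, where low counts were more common. Whether their reads came from the genes named was not tested.
Of the NIPs, *NIP7;1* fell from 18, 20 and 20 counts in WT to 8, 13 and 9 in *rse1-1*, with a log2FC of -1.21 (SE 0.322, adjusted p = 0.00333). *NIP1;2* and *NIP3;1* had log2FC values of -0.25 and -0.23 and did not pass (adjusted p = 0.274 and 0.298 from edgeR). *NIP5;1*, a boric acid channel, had a mean of 11.3 counts and was removed by the filter on low counts. *SIP1;1*, within 5 Mb of the start of chromosome 3, rose from 110 ± 1.73 to 166.5 ± 13.6 CPM (SD, n = 3), and *SIP1;2* fell from 9.21 ± 1.22 to 4.25 ± 0.397 CPM (SD, n = 3).

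Genes whose proteins are known to act on PIPs were listed as well. Of the 10 genes listed as PIP partners, 9 had counts, and by edgeR's test 6 rose and 3 did not pass, with a median log2FC of 0.35. Over all tested genes 77.0% were called and 38.8% were higher, so the number of partners called does not set the list apart. With upper quartile scaling *OST1* (-0.32) and *RMA1* (-0.40) passed as lower. *SYP121*, a plasma membrane syntaxin that delivers PIPs to the cell surface and also acts in defense, was read 627, 515 and 643 times in WT, and 2866, 1955 and 2377 times in *rse1-1*. It rose from 56.5 ± 6.52 to 188 ± 1.68 CPM (SD, n = 3), a log2FC of 1.74 (SE 0.0818, adjusted p = 7.15e-11). The membrane fusion proteins *VAMP721* and *SYP71* rose with log2FC values of 0.56 and 0.35, and *VAP27-1* with one of 0.20 (adjusted p = 0.0318 from edgeR). *VAP27-1* lost its call with upper quartile scaling (0.01), with DESeq2 (0.23), and without WT replicate 2 (0.19), WT replicate 3 (0.22) or *rse1-1* replicate 1 (0.18).
Among kinases, *BAK1*, a co-receptor that phosphorylates PIP2A in guard cells, rose from 45.5 ± 1.43 to 105.5 ± 3.75 CPM (SD, n = 3), a log2FC of 1.21. *CPK7*, a calcium-dependent kinase known to act on PIP abundance in roots, rose from 111 ± 5.08 to 190 ± 3.28 CPM (SD, n = 3), a log2FC of 0.77. *OST1*, a kinase of abscisic acid signaling, the ubiquitin ligase gene *RMA1* and the syntaxin gene *SYP61* had log2FC values of -0.13, -0.21 and -0.00076 and did not pass (adjusted p = 0.208, 0.0720 and 0.995 from edgeR). *TSPO*, whose product takes PIPs to degradation, was listed at 0. *SYP121*, *SYP71*, *VAMP721*, *RMA1* and *CPK7* lie within 5 Mb of a chromosome start. *BAK1*, *OST1*, *VAP27-1* and *SYP61* lie further along, and whether their reads came from the genes named was not tested.

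**Figure D3:**
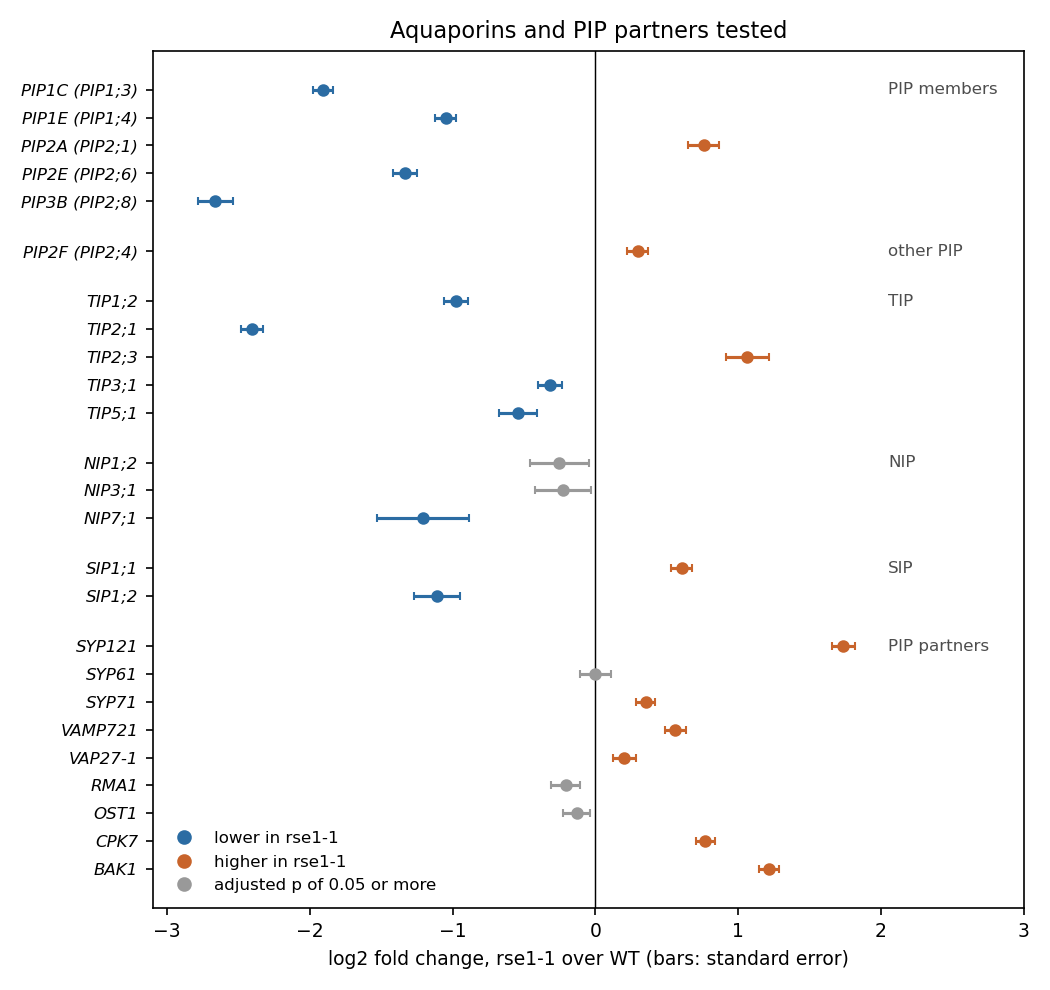
Log2 fold change of *rse1-1* over WT from edgeR (horizontal axis, bars are standard errors) for the 5 measured PIP members, the other 11 aquaporins tested and the 9 PIP partners tested. Blue marks genes lower in *rse1-1*, orange genes higher and grey genes with an adjusted p of 0.05 or more. Of the 5 measured members *PIP2A* lies to the right of 0 and the other 4 to the left.

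Markers of cell types in the leaf moved as well. Of 3 xylem markers all fell, and their summed level ranged from 677 to 693 CPM in WT and from 158 to 194 CPM in *rse1-1*. Most of that sum came from *CESA4*, with means of 623 CPM in WT and 152 CPM in *rse1-1*. Of 3 epidermis markers 2 fell and *PDF1* was at 0, with sums of 332 to 375 CPM in WT and 142 to 167 CPM in *rse1-1*. Of 3 phloem markers 2 fell, with sums of 749 to 770 CPM in WT and 572 to 603 CPM in *rse1-1*, and *APL* was near 0. Most of the phloem sum came from *SUC2*, with means of 597 CPM in WT and 509.5 CPM in *rse1-1*. Of 4 guard cell markers 2 fell, *MYB60* (log2FC -0.79) and *FAMA* (-0.29). *SLAC1* did not pass (-0.25, adjusted p = 0.0543 from edgeR) and *HT1* was at 0. The guard cell sums were 120 to 130 CPM in WT and 83.5 to 96.6 CPM in *rse1-1*. Of 4 mesophyll markers only *RBCS1A* had a mean of at least 10 counts, and it fell, with sums over the list of 65.8 to 79.1 CPM in WT and 53.5 to 56.2 CPM in *rse1-1*. Trichome markers were at or near 0, and of 3 root markers only *CASP1* was above 0 and rose, with sums of 0.172 to 0.304 CPM in WT and 1.45 to 2.55 CPM in *rse1-1*. Over all tested genes 77.0% were called and 38.3% were lower, so a call by itself does not set a marker apart. Of the measured markers, only *MYB60*, *SLAC1* and the phloem gene *SEOR1* lie within 5 Mb of a chromosome start. Whether the reads of the others, all xylem and epidermis markers among them, came from the genes named was not tested. The part of the marker shifts in the changes of the PIP genes was not tested.

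The genes outside the aquaporins whose centred log2 CPM over the 6 libraries lay nearest to that of *PIP1C* were *EXL4*, *LQY1* and *SKU5*, at Euclidean distances of 0.0772, 0.101 and 0.168. Distances were below 0.5 for 328 genes. *EXL4* and *LQY1* start 28.5 and 28.4 Mb along chromosome 1, and *SKU5* starts 7.35 Mb along chromosome 4. All of them thus lie more than 5 Mb from a chromosome start, and whether their reads came from the genes named was not tested. The 6 points of each gene fall into 2 genotypes, so likeness here is largely a like difference between WT and *rse1-1*.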

How the data were processed

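Single reads of 75 bases were, per the study's methods and the submitters' processing notes, trimmed with Trimmomatic 0.32.3, aligned with TopHat2 2.0.9 to a L*er*-0 genome rebuilt from Col-0 (TAIR10), cleared of PCR duplicates with Picard 1.119 and counted per gene with HTSeq 0.6.1, uniquely mapped reads only. Removing duplicates of single reads lowers the counts of strongly expressed genes most. The strand setting and annotation version are not given in the sources used here. The authors deposited raw counts, without normalization, for 33602 genes, of which 32835 matched the RefSeq table of TAIR10.1. Entries that name no gene (47.0% to 48.7% of a library) were left out. The libraries held between 9960144 and 15244500 counts assigned to genes, and a count of 0 allows up to 3 counts (95% level), or 0.195 to 0.304 CPM, for counting error only.

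Counts were compared with edgeR 4.0.16 in R 4.3.3 (TMM, filterByExpr with a minimum of 10, quasi-likelihood test, genotype alone), and p-values were adjusted by Benjamini-Hochberg across 16294 genes, calling those under 0.05. The SE is the log2FC divided by the square root of F. Alternatives were DESeq2 1.42.0, limma-voom 3.58.1, other scalings and filters, the replicate number as a block and each library left out. Pairwise coding identities used Biopython 1.88. The tests were checked on simulated counts, where edgeR recovered 96 of 100 genes changed 2-fold and 100 of 100 changed 4-fold among 15707 tested, with 7 other calls. Only 200 genes were changed there, equally often up and down, with the same dispersion for every gene. The simulation therefore does not check scaling or error rates where most genes differ, as they do here. Named genes were all members, *RSE1*, the other PIPs, each TIP, NIP, SIP and partner gene with a mean of at least 10 counts, the neighbour with the highest count of 3 on either side, and the 3 genes nearest to the highest member. The ratios, and neighbours or genes at 0 beyond these, were picked with their values in view. The members and lists were chosen with earlier results of these data known.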

Additional observations from a re-analysis of the deposited data

How the results depend on the processing

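The 5 measured PIP members kept their direction and their call under every alternative fit. Their log2FCs ranged from -2.10 to -1.88 for *PIP1C*, -1.24 to -0.997 for *PIP1E*, 0.57 to 0.87 for *PIP2A*, -1.53 to -1.26 for *PIP2E* and -2.85 to -2.55 for *PIP3B*. Upper quartile scaling moved the median of all tested genes from -0.0086 to -0.20 and the share of higher genes among those called from 50.3% to 40.1%. It moved the log2 ratio of the summed levels to -1.71 for the PIP1 members (main -1.52) and to -1.32 for the PIP2 members (main -1.13). Requiring a log2 fold change of at least 1 left 5175 called genes of 12548, and 4 of the 5 members, without *PIP2A*. The replicate numbers did not pair the libraries: deviations of same-numbered libraries correlated at 0.0399, 0.0718 and -0.0604. With the replicate block 12546 genes were called, and the block changed no call of a member. The log2FC of *SYP61*, which did not pass, was -0.00076 in the main fit (SE 0.1105). Its sign changed with DESeq2 (0.027), RLE scaling (0.020), library size alone (0.014), no filter (0.0059) and at least 10 counts in every library (0.024). Without 1 library it ran from -0.061 to 0.095. These values all lay within the main SE of 0, and the cause of the sign changes was not tested. Leaving out 1 library gave 11911 to 12546 called genes. *OST1* and *RMA1* passed as lower with upper quartile scaling (-0.32 and -0.40), as did *RMA1* without WT replicate 3 (-0.29).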
